A study of Mus musculus with 12 samples.

Results

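The Hoxa cluster is a run of homeobox genes on mouse chromosome 6, all read from the minus strand. The 8 members described here are Hoxa2, Hoxa3, Hoxa4, Hoxa5, Hoxa6, Hoxa7, Hoxa9 and Hoxa10, taken by symbol from a table of 55471 genes after its identifiers were matched to GENCODE M21 on GRCm38. They include Hoxa9, which the study targeted, and its neighbours on both sides. RNA was sequenced from LSK cells, marrow cells that lack lineage markers and carry Sca1 and Kit, the fraction of mouse marrow that holds blood-forming stem cells and early multipotent progenitors.

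Hox genes encode transcription factors that bind DNA through a homeodomain, usually together with partner proteins of the PBX and MEIS families. In vertebrate embryos the genes of a cluster are switched on in the order in which they lie, and this order sets position along the body axis. In blood, Hoxa genes are active in stem and progenitor cells and are switched off as cells mature, and their forced or sustained activity, that of Hoxa9 above all, is a hallmark of several acute leukaemias.

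There were 12 libraries in 6 groups of 2, all from primary transplanted mice 6 weeks after tamoxifen. HOXA9_KO had Hoxa9 targeted, Bcat_KO had β-catenin (gene Ctnnb1) targeted, dKO had both targeted, and WT was their wild type. PRMT1_KO had the arginine methyltransferase Prmt1 targeted and was set against a wild type of its own, WT_PRMT1. Titles call the groups KO, and the genotype labels call them knockdown. Not given in the sources used here are the alleles, the exons they delete, the promoter that drives the recombinase and the blood cells of the host that remain. No label says whether replicate libraries were from different mice, so p-values measure the spread between these libraries, which may be technical. Libraries are named by group and the S tag of their column. Columns headed control were taken to be WT.

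Depth was 17569709 to 40553891 counts per library. The gate genes Kit (139 to 461 CPM) and Ly6a, which encodes Sca1 (73.7 to 298 CPM), were present in every library. CPM is the count for each 1e6 counts of the library, whose total was first scaled by the trimmed mean of M values (TMM). Prmt1 was at 118 and 112 CPM in PRMT1_KO, against 283 and 292 in WT_PRMT1. Ctnnb1 was at 276 and 267 CPM in Bcat_KO and at 227 and 235 in dKO, against 315 and 342 in WT. Xist, the X-silencing RNA of female cells, did not exceed 0.758 CPM in HOXA9_KO, dKO and PRMT1_KO libraries and was 11.2 and 21.9 CPM in Bcat_KO, against 163 to 202 CPM in WT and WT_PRMT1. The Y-linked gene Ddx3y ranged from 60.6 to 93.5 CPM over the knockout libraries, against 0.792 to 2.87 CPM over WT and WT_PRMT1. Genotype and sex type of the cells therefore cannot be told apart in any comparison of a knockout with its wild type. The Bcat_KO libraries also stood apart at very low levels: each listed 3 of 15 granulocyte and monocyte markers at 0 counts, and no other library listed any of them at 0.

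The locus itself sets some limits on what the counts mean. Hoxa9 (ENSMUSG00000038227, chr6:52223100-52231089) lies between Hoxa7 (ENSMUSG00000038236, chr6:52214491-52221854) and Hoxa10 (ENSMUSG00000000938, chr6:52231197-52240854). Exons of Hoxa5 (ENSMUSG00000038253, chr6:52201754-52204587), Hoxa6 (ENSMUSG00000043219, chr6:52206288-52208722) and Hoxa10 share no base with another gene. Hoxa7 shares 586 of its 2876 exon bases with the antisense RNA Hoxaas3, which stood at 0.33 to 2.1 CPM. Hoxa4 (ENSMUSG00000000942, chr6:52189671-52191753) shares 255 of 1594 exon bases with the antisense Gm29430. Hoxa3 (ENSMUSG00000079560, chr6:52169062-52213336) shares 27.1% of 6014 exon bases with 5 other genes, and Hoxa2 (ENSMUSG00000014704, chr6:52162417-52164831) shares 267 of 1775 with Gm28308, which had no count in any library. No source used here gives the strand setting of the counting, so reads of these genes and of their antisense partners cannot be told apart.

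The annotated Hoxa9 gene extends upstream of the start from which RefSeq reads it. The RefSeq promoter of Hoxa9, 250 bases before to 50 bases after the start (GRCm38.p6), lies inside the annotated gene. It is shown because exon bases that hold Mir196b lie upstream of it, within the same gene. How many Hoxa9 counts came from either side of it was not tested. The 50 transcribed bases are in capitals.
Hoxa9 (chr6:52227321-52227620, minus strand): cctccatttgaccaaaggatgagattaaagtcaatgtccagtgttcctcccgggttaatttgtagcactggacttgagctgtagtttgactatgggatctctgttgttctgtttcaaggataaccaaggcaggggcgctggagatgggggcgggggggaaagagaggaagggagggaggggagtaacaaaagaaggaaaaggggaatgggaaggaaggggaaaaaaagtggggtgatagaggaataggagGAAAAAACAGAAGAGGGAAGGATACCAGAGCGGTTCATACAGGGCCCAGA
RefSeq promoters were matched for 7 of the 8 members. The letters TGATTNAT, a motif of PBX and HOX proteins bound together, were searched on both strands. They occurred in the promoter of Hoxa2 alone among the matched members and in 3.22% of 32851 mouse promoters.

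Mir196b encodes a microRNA known to pair with Hox messenger RNAs, and its 85-base hairpin lies wholly within a Hoxa9 exon. The hairpin was listed with no count in any of the 12 libraries. No source used here says how reads that overlap 2 genes were counted, so this 0 does not measure RNA of the hairpin, and mature microRNAs were not measured. The mature sequences of miR-196b and of miR-196a, which comes from the Hoxb and Hoxc clusters, are shown because they share the seed, bases 2 to 8, given in capitals (RefSeq, GRCm38.p6, 5′ to 3′).
mmu-miR-196b-5p (chr6:52230129-52230150, minus strand): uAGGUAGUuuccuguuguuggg
mmu-miR-196a-5p (chr11:96265187-96265208, plus strand): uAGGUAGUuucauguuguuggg
The complement of that seed, ACTACCT, was searched in the longest annotated 3′ untranslated region of each protein coding gene, on the sense strand. It occurred in 4 of the 8 members, in 9 of 39 Hox genes of all clusters and in 6.11% of 20990 protein coding genes. Hoxa7 held 4 matches, and Hoxa9, Hoxa5 and Hoxa4 held 1 each. The sites, each 22 bases of GRCm38 sequence read 5′ to 3′ on the gene's own strand, are shown with the seed match in capitals.
Hoxa9 (chr6:52223900-52223921, minus strand): caaaaggaaagaaaACTACCTt
Hoxa7 (chr6:52215400-52215421, minus strand): ggcacagccaaaatACTACCTa
Hoxa7 (chr6:52215363-52215384, minus strand): agaggcactcccaaACTACCTa
Hoxa7 (chr6:52215231-52215252, minus strand): aaaccatgatcaatACTACCTa
Hoxa7 (chr6:52215210-52215231, minus strand): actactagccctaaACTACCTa
Hoxa5 (chr6:52202118-52202139, minus strand): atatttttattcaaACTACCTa
Hoxa4 (chr6:52190066-52190087, minus strand): agcactggccatcgACTACCTt
The longest pairing among the Hox genes was outside the cluster, in Hoxb8, whose messenger is known in mouse to be cut at this site. Its site holds 20 Watson-Crick pairs and 1 G:U pair with the 22 bases of miR-196b (paired bases, G:U included, in capitals) and, because of that G:U pair, no strict seed match.
Hoxb8 (chr11:96284888-96284909, plus strand): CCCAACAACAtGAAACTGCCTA
A match is a description of the sequence, and no miRNA activity was measured.

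Levels differed widely between members, and the genes in the middle of the cluster and toward Hoxa10 stood higher than Hoxa2, Hoxa3 and Hoxa4. As CPM per kilobase of exon, the scale on which genes can be compared, the medians over 12 libraries were 9.05 for Hoxa7, 7.83 for Hoxa9, 6.98 for Hoxa5 and 4.60 for Hoxa10. Hoxa6 had a median of 1.67 per kilobase. Hoxa4, Hoxa3 and Hoxa2 had 0.692, 0.502 and 0.435 per kilobase. The order Hoxa5 above Hoxa10, Hoxa10 above Hoxa6 and Hoxa6 above Hoxa4 held in 12 of 12 libraries. Hoxa7 was above Hoxa9 in 9 of 12 libraries, Hoxa9 above Hoxa5 in 7, Hoxa4 above Hoxa3 in 10 and Hoxa3 above Hoxa2 in 8, so these neighbours did not keep 1 order. These libraries include the 4 of HOXA9_KO and dKO, in all of which Hoxa9 was below Hoxa7 and Hoxa5. In the 8 libraries in which Hoxa9 was not targeted, its median was 8.41 per kilobase, and it was above Hoxa7 in 3 and above Hoxa5 in 7. In WT it was the highest member, with a mean of 10.6 per kilobase, against 7.85 for Hoxa7. The ranges of all neighbours in the order overlapped across the 12 libraries. When only exon bases shared with no other gene were used, the median of Hoxa7 was 11.4 and that of Hoxa3 0.690 per kilobase, and the order of the medians was the same. The length used for Hoxa9, 5580 exon bases, includes bases upstream of its RefSeq start. Its level per kilobase and its place in the order depend on that annotation.

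**Figure D1:**
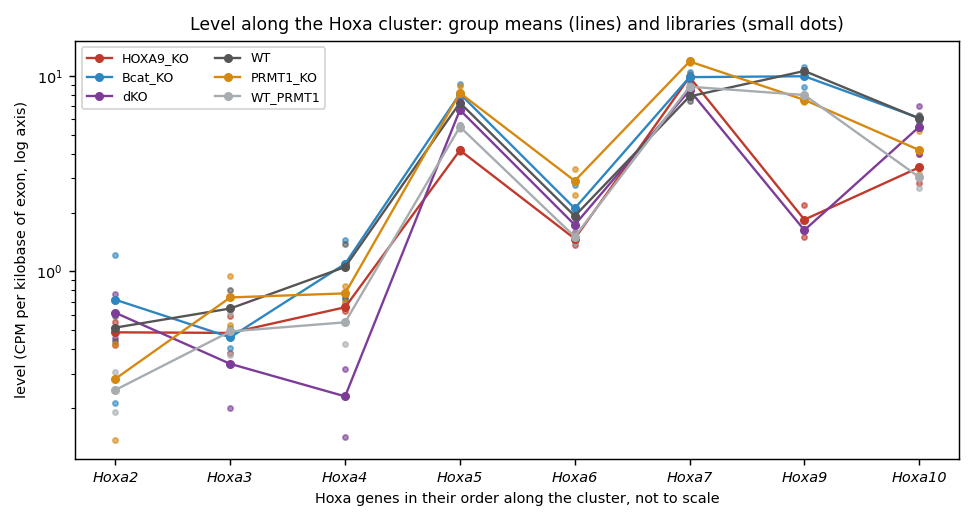
Level of each Hoxa gene as CPM per kilobase of exon (log axis), with the genes in their order along the cluster. Lines join group means of 2 libraries and small dots are libraries. Hoxa9 falls to 1.84 and 1.62 per kilobase in HOXA9_KO and dKO, against 10.6 in WT, and Hoxa4 is lowest in dKO.

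The spread over libraries also differed between members. The highest of the 12 libraries was 1.64 times the lowest for Hoxa7, 2.21 times for Hoxa5, 2.45 times for Hoxa6 and 2.61 times for Hoxa10. It was 7.40 times for Hoxa9, and the 4 lowest libraries of Hoxa9 were those of HOXA9_KO and dKO. For the 3 low genes the spread rested on few counts: Hoxa4 had 6 to 98 counts per library, Hoxa2 had 4 to 68 and Hoxa3 had 31 to 127. Even counts prevailed, so each fragment seems to have given a count for each mate, and fragments were fewer than counts.

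Hoxa9, a homeodomain factor needed for normal stem cell repopulation, was low in both groups in which it was targeted and in no other. Hoxa9 stood at 12.2 CPM in HOXA9_KO S4 and 8.36 in HOXA9_KO S5, and at 9.21 and 8.92 CPM in dKO S6 and S7, against 58.7 and 59.9 CPM in WT S1 and S2. It stood at 49.2 and 61.9 CPM in Bcat_KO S3 and S4. The 4 libraries with Hoxa9 targeted lay below all others, and the Bcat_KO libraries lay on both sides of WT. Relative to WT, Hoxa9 fell by 2.53 ± 0.17 on the log2 scale in HOXA9_KO (edgeR quasi-likelihood test with Benjamini-Hochberg adjustment over 17063 genes, adjusted p = 4.99e-08). This left 17.3% of the WT level. In dKO it fell by 2.71 ± 0.17 (adjusted p = 1.25e-08), leaving 15.3%, and relative to Bcat_KO it fell by 2.61 ± 0.17 (adjusted p = 3.28e-08). Errors of log2 changes are standard errors, n = 2 libraries per group. The counts cover the whole gene, so the remaining reads cannot be divided between undeleted cells and transcripts of a deleted allele.

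With β-catenin targeted as well, Hoxa9 did not differ detectably from HOXA9_KO. The difference was -0.17 ± 0.16 (95% interval -0.52 to 0.17, adjusted p = 0.769), with overlapping libraries. In Bcat_KO against WT it was -0.09 ± 0.15 (95% interval -0.42 to 0.23, adjusted p = 0.728). In the other experiment Hoxa9 stood at 41.1 and 43.0 CPM in PRMT1_KO, against 44.7 and 44.4 CPM in WT_PRMT1, a difference of -0.08 ± 0.16 (95% interval -0.41 to 0.25, adjusted p = 0.739). Between the wild types, Hoxa9 in WT_PRMT1 was -0.41 ± 0.16 relative to WT, with no overlap, and this did not pass the adjustment (adjusted p = 0.131, and 0.0113 to 0.403 over the alternatives). It passed with only these 2 groups fitted (0.0113).

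**Figure D2:**
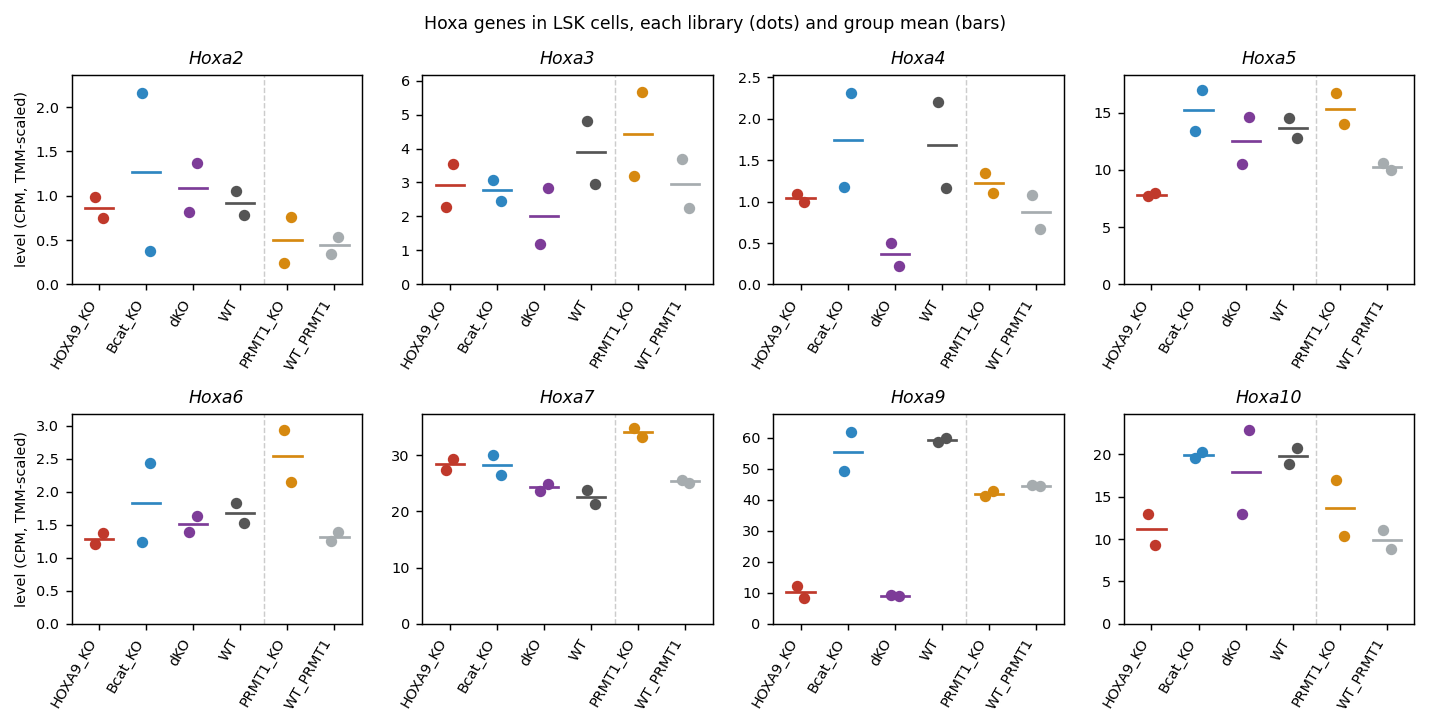
Level of each Hoxa gene in CPM (TMM-scaled, linear axes from 0). Dots are libraries, bars are means of 2 libraries, and the dashed line divides the experiments. Hoxa9 is low in HOXA9_KO and dKO alone, and the HOXA9_KO libraries of Hoxa5 and Hoxa10 lie below both WT libraries.

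In HOXA9_KO against WT, 2 of the 8 members were called, Hoxa9 and Hoxa5, both lower, at an adjusted p under 0.05. Of all genes tested, 6.73% were called. Hoxa9 was the target, which leaves 1 call among its neighbours. Of the 8 members, 5 had both HOXA9_KO libraries below both WT libraries and 1, Hoxa7, had both above. Over all genes tested the shares were 25.1% below and 25.8% above, so groups of 2 often do not overlap. The median change of the members was -0.54, beside -0.00 over all genes.

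Hoxa5, a factor of early myeloid and erythroid cells in mouse and human marrow, was the only neighbour called. It stood at 7.70 and 7.95 CPM in HOXA9_KO S4 and S5, against 14.5 and 12.8 CPM in WT S1 and S2. Both knockout libraries were below both WT libraries, and they were also the 2 lowest of all 12. Hoxa5 fell by 0.81 ± 0.22 (adjusted p = 0.0387), to 57.2% of WT. The call was lost without any 1 of the libraries compared: adjusted p was 0.203 without HOXA9_KO S4, 0.122 without HOXA9_KO S5, 0.249 without WT S1 and 0.11 without WT S2. It was also lost when only the 4 groups of the experiment were fitted (0.0666) and with a spread that was not robust (0.0577).

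Hoxa10, the neighbour upstream of Hoxa9 and a factor that expands stem and progenitor cells when forced, had values much like those of Hoxa5. It stood at 13.0 and 9.28 CPM in HOXA9_KO S4 and S5, against 18.9 and 20.7 CPM in WT S1 and S2. The groups did not overlap. The difference was -0.83 ± 0.28, and it did not pass (adjusted p = 0.101, and 0.00609 to 0.424 over the alternatives). It passed with DESeq2 (0.0364), with no filter on low counts (0.00609) and with only the 2 groups fitted (0.0286).

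Hoxa7, the neighbour on the other side, went the other way without passing. It stood at 27.4 and 29.3 CPM in HOXA9_KO, against 23.8 and 21.3 CPM in WT, and the groups did not overlap. The difference was 0.33 ± 0.14 (adjusted p = 0.2, unadjusted p = 0.0314 from edgeR). Hoxa2, Hoxa3, Hoxa4 and Hoxa6, for which 95% intervals reached from below -1 to above 0.5, did not pass either.

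In Bcat_KO against WT, none of the 8 members was called by edgeR, and 1 had an unadjusted p under 0.05. Of all genes tested, 17.2% were called. The median change of the members was 0.10, beside -0.04 over all genes, and 7 of the 8 members had overlapping libraries, as did 40.7% of all genes tested. The exception was Hoxa7, at 30.1 and 26.5 CPM in Bcat_KO, against 23.8 and 21.3 in WT, with a difference of 0.32 ± 0.14 (adjusted p = 0.118). Hoxa5 stood at 13.4 and 17.0 CPM in Bcat_KO, against 14.5 and 12.8 in WT. Hoxa10 stood at 19.6 and 20.3 CPM in Bcat_KO, against 18.9 and 20.7 in WT, with a 95% interval of -0.58 to 0.60.

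In dKO against WT, 2 of the 8 members were called lower, Hoxa9 and Hoxa4, where 17.7% of all genes were called. The median change was -0.15, beside 0.01 over all genes. Hoxa4, which like Hoxa10 is known to expand stem cells when forced in mouse marrow, stood at 0.503 and 0.228 CPM in dKO S6 and S7, against 2.20 and 1.16 CPM in WT S1 and S2. These are 13 and 6 counts in dKO, against 42 and 25 in WT. The dKO libraries were the 2 lowest of all 12. Hoxa4 fell by 2.18 ± 0.73 relative to WT (adjusted p = 0.0488). The call was lost without any 1 of the libraries compared: adjusted p was 0.0687 without dKO S6, 0.342 without dKO S7, 0.343 without WT S1 and 0.0797 without WT S2. It was also lost with only the groups compared (0.0724), only the experiment (0.0708) or no filter (0.111).

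Hoxa5 and Hoxa10 were not called in dKO against WT. Hoxa5 stood at 10.5 and 14.6 CPM in dKO S6 and S7, which spans WT. Hoxa10 stood at 13.0 and 22.9 CPM in dKO S6 and S7, so that dKO S6 was at the HOXA9_KO level and dKO S7 above both WT libraries. The differences from WT had 95% intervals of -0.59 to 0.34 for Hoxa5 and -0.73 to 0.45 for Hoxa10.

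The direct comparison of dKO with HOXA9_KO called none of the 8 members by edgeR, with 2 at an unadjusted p under 0.05. Of all genes, 1.75% were called. The members' median was 0.03, beside 0.01 over all genes. The differences with an unadjusted p under 0.05 were those of Hoxa5, 0.68 ± 0.22 (unadjusted p = 0.00708, adjusted p = 0.161), and Hoxa10, 0.69 ± 0.28 (unadjusted p = 0.0268, adjusted p = 0.31). For both genes the dKO libraries lay above the HOXA9_KO libraries, as for 20.4% of all genes tested. Hoxa10 was, however, 13.0 CPM to 3 digits in dKO S6 and in HOXA9_KO S4. Hoxa10 passed without dKO S6 (1.03, adjusted p = 0.0384), whereas without dKO S7 its difference was 0.23 (adjusted p = 0.941).

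In dKO against Bcat_KO, 2 of the 8 members were called lower, Hoxa9 and Hoxa4, and 28.1% of all genes were called. The median change was -0.28, beside 0.06 over all genes. Hoxa4 stood at 0.503 and 0.228 CPM in dKO, against 1.18 and 2.31 CPM in Bcat_KO, with no overlap, as for 62.6% of all genes tested. It fell by 2.24 ± 0.73 (adjusted p = 0.0288). That call was lost without dKO S6 (0.0503), dKO S7 (0.207) or Bcat_KO S4 (0.163), with no filter (0.0635) and with only these groups fitted (0.117). These comparisons share the dKO libraries, as those above share the WT libraries, so they are not independent of each other.

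The change in dKO was also set against the sum of the single changes. None of the 8 members departed from additivity on the log2 scale by edgeR, with 1 at an unadjusted p under 0.05, while 8.43% of all genes did. The members' median departure was -0.06, beside 0.04 over all genes. Hoxa7 was nearest, at -0.55 ± 0.20 (unadjusted p = 0.0131, adjusted p = 0.095): it stood at 23.7 and 24.9 CPM in dKO, close to the 23.8 and 21.3 of WT, whereas each single group was above WT. For Hoxa9 the departure was -0.08 ± 0.22 (adjusted p = 0.88).

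**Figure D3:**
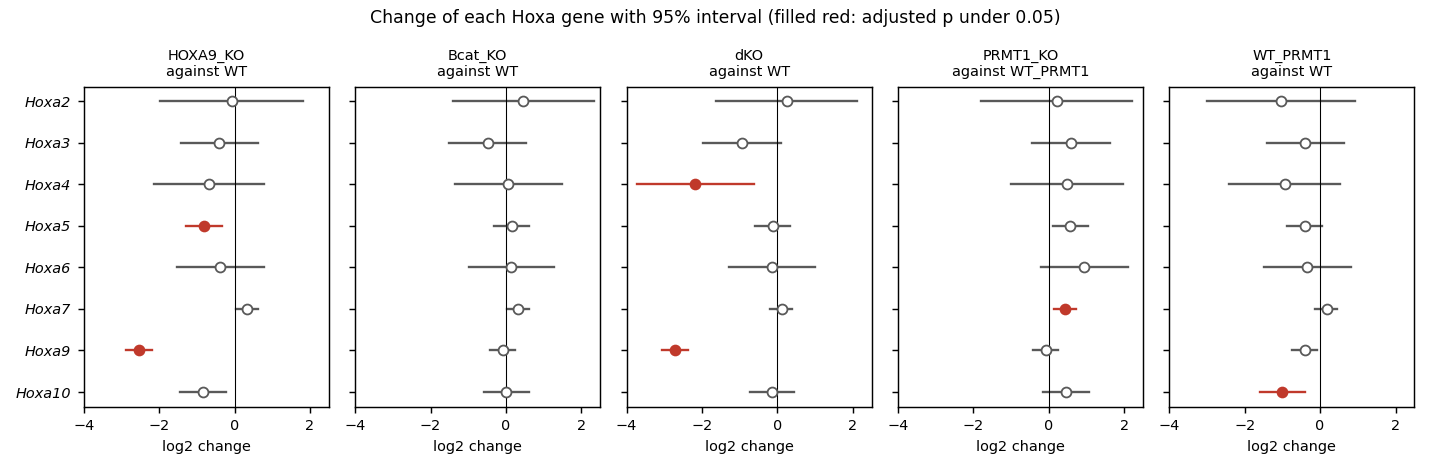
Log2 change of each Hoxa gene in 5 comparisons, with its 95% interval from the edgeR fit. Filled red points passed an adjusted p of 0.05: Hoxa9 and Hoxa5 in HOXA9_KO, Hoxa9 and Hoxa4 in dKO, Hoxa7 in PRMT1_KO and Hoxa10 between the wild types.

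In PRMT1_KO against WT_PRMT1, 1 of the 8 members was called, Hoxa7, which was higher, where 32.5% of all genes were called. The members' median was 0.48, beside -0.03 over all genes, and 7 of the 8 changes were positive. Hoxa7, known with Hoxa9 as a gene kept active by the methyltransferase KMT2A, stood at 34.9 and 33.2 CPM in PRMT1_KO S8 and S9, against 25.6 and 25.1 CPM in WT_PRMT1 S10 and S11. The groups did not overlap, as was so for 68.2% of all genes tested, and the PRMT1_KO libraries were the 2 highest of all 12. Hoxa7 rose by 0.43 ± 0.14 (adjusted p = 0.0257), to 1.34 times WT_PRMT1. The call was lost with library-size scaling (0.29, adjusted p = 0.146), with no filter (0.0631) and without PRMT1_KO S8 (0.149), PRMT1_KO S9 (0.085), WT_PRMT1 S10 (0.103) or WT_PRMT1 S11 (0.118).

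Hoxa5 in PRMT1_KO fell just short of the threshold. It stood at 16.7 and 14.0 CPM in PRMT1_KO S8 and S9, against 10.6 and 10 CPM in WT_PRMT1 S10 and S11, with no overlap. The difference was 0.57 ± 0.22 (adjusted p = 0.0581, and 0.0307 to 0.319 over the alternatives), and it passed when only this experiment was fitted (0.0307). Hoxa6, a low gene of the middle of the cluster, stood at 2.94 and 2.14 CPM in PRMT1_KO, against 1.25 and 1.39 in WT_PRMT1. Hoxa10 stood at 17.0 and 10.3 CPM in PRMT1_KO, against 11.1 and 8.77 in WT_PRMT1, and these libraries overlapped. Hoxa9 was the 1 member with a negative sign.

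The 2 wild types were compared to see how far the experiments differ. In WT_PRMT1 against WT, 1 of the 8 members was called, Hoxa10, which was lower, where 7.58% of all genes were called. The members' median was -0.41, beside -0.01 over all genes. Hoxa10 stood at 11.1 and 8.77 CPM in WT_PRMT1, against 18.9 and 20.7 CPM in WT, with no overlap, and fell by 1.00 ± 0.28 (adjusted p = 0.0439), to 50.1%. That call was lost with RLE size factors (0.05), library-size scaling (0.0578), a spread that was not robust (0.0838), and without WT_PRMT1 S10 (0.117), WT_PRMT1 S11 (0.321), WT S1 (0.136) or WT S2 (0.222). Of the 8 members, 6 had both WT_PRMT1 libraries below both WT libraries, and Hoxa7 had both above, where 26.5% of all genes tested were below and 26.4% above. Apart from this comparison, no test crossed the 2 experiments. Ranks, spreads and correlations over all 12 libraries mix experiment with genotype.

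Hoxa3, Hoxa6 and Hoxa2 were called in no comparison by edgeR, and none of them had an unadjusted p under 0.05 in any. Hoxa3, which patterns the thymus and parathyroid in the mouse embryo, stood at 2.29 and 3.54 CPM with HOXA9_KO, at 3.08 and 2.45 with Bcat_KO and at 1.20 and 2.85 with dKO, against 4.81 and 2.96 in WT. In the other experiment it stood at 3.19 and 5.66 CPM in PRMT1_KO, against 3.68 and 2.25 in WT_PRMT1. Only dKO was without overlap, as were 58.7% of all genes tested in dKO against WT. Both dKO libraries lay below both of WT, with means of 2.02 CPM in dKO and 3.89 in WT, and dKO S6 was the lowest of all 12. This difference did not pass the test (adjusted p = 0.227 from edgeR).

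Hoxa6 stood at 1.20 and 1.37 CPM with HOXA9_KO, at 1.24 and 2.43 with Bcat_KO and at 1.39 and 1.63 with dKO, against 1.83 and 1.53 in WT. Its highest library was PRMT1_KO S8 and its lowest HOXA9_KO S4. Hoxa2, which patterns the second branchial arch, stood at 0.983 and 0.749 CPM with HOXA9_KO, at 2.16 and 0.377 with Bcat_KO and at 0.813 and 1.37 with dKO, against a mean of 0.916 CPM in WT. In the other experiment it stood at 0.245 and 0.758 CPM in PRMT1_KO, against 0.34 and 0.539 in WT_PRMT1. The Bcat_KO libraries of Hoxa2 were the highest and the lowest of that experiment, and standard errors of 0.87 to 1.25 on the log2 scale leave changes of this gene unmeasured at this depth.

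The share that each member held of the summed Hoxa level shows the same values from another side. As a share of the summed CPM per kilobase of the 8 members, Hoxa9 held 9.58% and 6.82% in HOXA9_KO and 7.48% and 5.65% in dKO, against 28.3% and 30.9% in WT. Hoxa7 held 41.8% and 46.4% in HOXA9_KO, against 22.3% and 21.4% in WT. Less Hoxa9 in the sum raises the share of every other member. With Hoxa9 left out of the sum, Hoxa7 held 46.3% and 49.8% in HOXA9_KO, against 31.1% and 30.9% in WT. The change in the level of Hoxa7, 0.33 ± 0.14, was not called. Without Hoxa9, the other 7 members summed to 20.6 and 20.5 per kilobase in HOXA9_KO and to 20.4 and 26.7 in dKO, against 26.7 and 24.0 in WT. The sum over the other members was thus below WT in both HOXA9_KO libraries and not in both dKO libraries.

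Markers of cell states inside the LSK gate moved with these comparisons. Of all genes tested, 4.44% were higher and 2.30% lower in HOXA9_KO, and 9.15% and 8.52% in dKO. The shares were 7.48% and 9.76% in Bcat_KO, 16.6% and 16.0% in PRMT1_KO, and 3.71% and 3.87% in WT_PRMT1 against WT. These shares are the background for the counts of this and the later lists. In HOXA9_KO, 12 of 15 long-term stem cell markers were higher and none lower, with summed levels of 1784 and 1504 CPM in HOXA9_KO, against 898 and 878 in WT. Of 12 markers of multipotent and lymphoid-primed progenitors, 8 were lower in HOXA9_KO, with sums of 1365 and 1458 CPM, against 3649 and 3201 in WT. In dKO, 11 of 15 stem cell markers were higher and 1 was lower, with sums of 1884 and 2523 CPM, and 9 of 12 progenitor markers were lower, with sums of 1355 and 757. In Bcat_KO, only 4 of 15 stem cell markers were higher, with sums of 990 and 992 CPM. There 4 of 12 progenitor markers were lower, with sums of 2946 and 2929 CPM and a median change of -0.03. In PRMT1_KO, 12 of 15 stem cell markers were higher, with sums of 916 and 901 CPM, against 468 and 475 in WT_PRMT1. Of the progenitor markers, 4 were higher and 1 was lower, with sums of 4790 and 4892 CPM in PRMT1_KO, against 3192 and 3413 in WT_PRMT1. In WT_PRMT1 against WT, 9 of 15 were lower. Of 12 megakaryocyte markers, 10 were tested, and 6 were higher in HOXA9_KO, 4 in Bcat_KO, 8 in dKO and 9 in PRMT1_KO, while 1 was higher and 5 were lower in WT_PRMT1 against WT. Of 11 B cell markers, none was called in HOXA9_KO, 10 were lower in dKO and 11 in Bcat_KO and in PRMT1_KO. Their sums were still lower in HOXA9_KO, at 233 and 476 CPM, against 896 and 1085 in WT. Their median change there was -1.77. No stem cell marker was at 0 in any library. Fewer cells of a type and less RNA per cell cannot be told apart in bulk samples, and the part of these markers in the Hoxa changes was not tested.

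Of 15 other genes listed for the locus, 6 passed the filter on low counts, and Mira was not matched by its symbol. Hoxa11 and Hoxa13, beyond Hoxa10 in the cluster, had 9 and 10 counts in all 12 libraries together and did not pass. None of the 6 tested was called in HOXA9_KO, Bcat_KO or dKO against WT. In PRMT1_KO, where 16.6% of all genes were higher, 2 were called, both higher and both protein coding genes outside the cluster. Snx10, a sorting nexin of endosomes, stood at 160 and 149 CPM in PRMT1_KO, against 85.5 and 80.1 in WT_PRMT1 (0.90 ± 0.09, adjusted p = 7.36e-07). Skap2, an adaptor of Src family kinases, stood at 244 and 253 CPM in PRMT1_KO, against 175 and 183 in WT_PRMT1 (0.47 ± 0.08, adjusted p = 0.000151).

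In the other Hox clusters, every call in HOXA9_KO, dKO and PRMT1_KO was higher. Of 28 Hoxb, Hoxc and Hoxd genes, 11 passed the filter. In HOXA9_KO, 3 of these 11 were called, where 4.44% of all genes were higher, and the median change of the 11 was 2.65. Over the alternatives 2 to 6 were higher in HOXA9_KO, 3 to 7 in dKO and 1 to 4 in PRMT1_KO. Hoxb8, a factor that holds myeloid progenitors immature when forced, stood at 46.7 and 26.2 CPM in HOXA9_KO and at 31.6 and 50.4 in dKO, against 1.67 and 0.74 in WT. The rise was 4.92 ± 0.54 in HOXA9_KO (adjusted p = 0.0012) and 5.09 ± 0.54 in dKO (adjusted p = 0.000378). Hoxb8 had no count in either Bcat_KO library, against 32 and 16 counts in WT, and was called lower there. Other low genes, Hoxb7, Hoxc5 and Hoxc8 among them, also had no count in either Bcat_KO library. Whether the Hoxb8 call reflects the genotype or those libraries was not tested. Hoxb5, which marks long-term stem cells, rose by 2.65 ± 0.41 in HOXA9_KO (adjusted p = 0.000597), and Hoxb6 rose by 3.16 ± 0.48 (adjusted p = 0.000501). In dKO 6 of the 11 were higher, where 9.15% of all genes were. In PRMT1_KO, where 16.6% of all genes were higher, 4 of the 11 were higher: Hoxb5, Hoxb6, Hoxb8 and Hoxb2. These calls rested on few counts. Hoxb5 had 65 and 52 counts in PRMT1_KO, against 10 and 16 in WT_PRMT1. Hoxb6 had 24 and 16, against 6 and 4, and Hoxb8 had 32 and 28, against 2 and 8. Hoxb2 had 15 and 15 counts, against 4 and 4. Over the alternatives Hoxb5 was called in 12 of 12, Hoxb8 in 8 of 12, Hoxb6 in 7 of 11 and Hoxb2 in 3 of 11. In WT_PRMT1 against WT, Hoxb5 and Hoxb6 were lower. Hoxb4 had the highest levels of these genes in WT, 9.57 and 5.83 CPM, and was not called in HOXA9_KO (0.86 ± 0.27, adjusted p = 0.065).

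**Figure D4:**
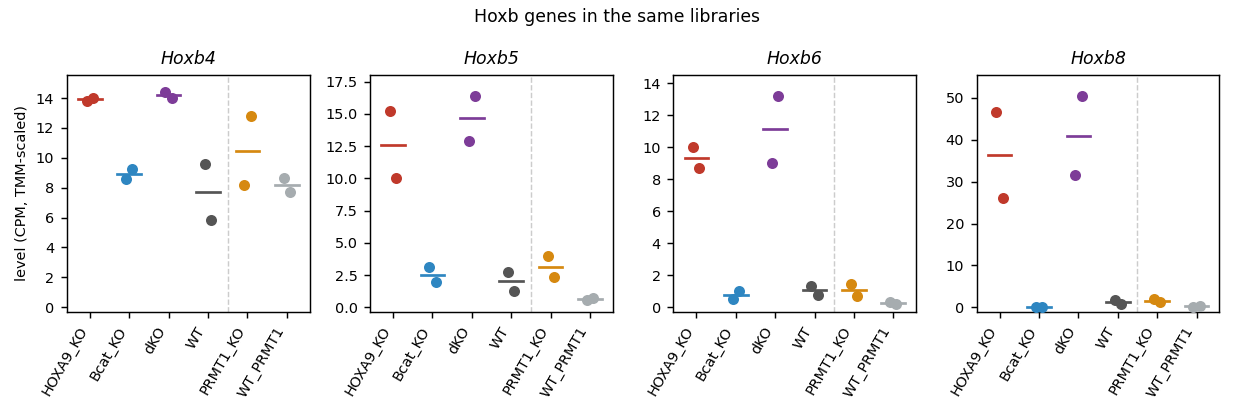
Level of 4 Hoxb genes in CPM (TMM-scaled, linear axes). Dots are libraries, bars are means of 2, and the dashed line divides the experiments. Hoxb8 stands at 26.2 to 50.4 CPM in HOXA9_KO and dKO libraries and at 1.96 or less in all others.

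The genes of the proteins that bind DNA with Hoxa9 were higher in HOXA9_KO in part. Of 10 PBX, MEIS and PKNOX family genes and partners, 9 were tested. In HOXA9_KO 3 were higher, beside 4.44% of all genes, and the median change of the 9 was 0.15. Pbx3 averaged 27.4 ± 0.77 CPM in HOXA9_KO and 7.31 ± 0.389 in WT (SD, n = 2 each), a rise of 1.91 ± 0.21 (adjusted p = 2.15e-05). Meis1, whose product is the closest partner of Hoxa9 in blood, rose by 0.56 ± 0.11 (adjusted p = 0.00387). Pbx4 did not pass (1.12 ± 0.41, adjusted p = 0.125). In Bcat_KO 2 of 9 were higher, Meis1 among them (0.63 ± 0.11, adjusted p = 0.00103). In dKO 4 were higher and 1, Pknox1, lower. In PRMT1_KO 3 were higher and 1, Pknox1, lower, beside 16.6% and 16.0% of all genes. In WT_PRMT1 against WT 3 were lower and 1, Pbx4, higher, and Meis1 fell by 0.86 ± 0.11 (adjusted p = 0.000106).

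Of 31 known regulators of Hoxa genes, 29 were tested. In HOXA9_KO 3 were higher and 2 lower, beside 4.44% and 2.30% of all genes, and the median of the 29 was -0.06. Those with the smallest p were Ezh1, a Polycomb methyltransferase (0.76 ± 0.12, adjusted p = 0.000943), Mllt3, a reader of acylated histones that maintains stem cells (0.97 ± 0.16, adjusted p = 0.00261), Xpo1, the nuclear exporter (-0.39 ± 0.08, adjusted p = 0.00773), and Cbx2, a Polycomb subunit (-0.84 ± 0.18, adjusted p = 0.00875). In dKO 6 were higher and 6 lower, beside 9.15% and 8.52% of all genes. In PRMT1_KO 7 were higher and 7 lower, beside 16.6% and 16.0% of all genes. The smallest p in PRMT1_KO were those of Xpo1 (-0.99 ± 0.08, adjusted p = 1.13e-07), Npm1, the nucleolar protein mutated in a leukaemia with high HOXA9 in human (0.52 ± 0.06, adjusted p = 3.03e-06), Psip1, which tethers KMT2A to chromatin (-0.64 ± 0.08, adjusted p = 6.87e-06), and Cbx7, a Polycomb subunit (1.46 ± 0.18, adjusted p = 7.6e-06). In Bcat_KO 8 were higher and 2 lower. Dot1l, the histone methyltransferase that sustains Hoxa9 in leukaemia, had the smallest p there (1.16 ± 0.13, adjusted p = 1.47e-05). No Hoxa member was called in Bcat_KO, and a link of Dot1l RNA to the Hoxa genes was not tested. Over the alternatives 2 to 4 regulators were higher and 0 to 4 lower in HOXA9_KO, and 1 to 9 were higher in Bcat_KO.

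Of 32 genes reported as targets of Hoxa9 and Meis1 in blood cells, 31 were tested. In HOXA9_KO 3 were higher and 11 lower, beside 4.44% and 2.30% of all genes, with a median of -0.15 for the list. Over the alternatives 1 to 6 were higher and 6 to 13 lower. Those with the smallest p were all lower: Cebpa, a myeloid transcription factor (-1.58 ± 0.15, adjusted p = 4.63e-06), Ccnd3, a D-type cyclin (-0.79 ± 0.12, adjusted p = 0.000728), Lck, a lymphocyte kinase (-0.88 ± 0.14, adjusted p = 0.000895), and Cd34, a surface sialomucin (-0.95 ± 0.13, adjusted p = 0.00148). In dKO 6 were higher and 12 lower, and these 4 again had the smallest p. In Bcat_KO 9 were higher and 7 lower, beside 7.48% and 9.76% of all genes. In PRMT1_KO 10 were higher and 7 lower, beside 16.6% and 16.0% of all genes, with 3 to 13 higher and 4 to 9 lower over the alternatives. Lck and Ccnd3 were also lower in Bcat_KO, at -1.31 ± 0.14 (adjusted p = 1.63e-05) and -1.09 ± 0.12 (adjusted p = 3.65e-05). In PRMT1_KO their changes were -1.40 ± 0.15 (adjusted p = 1.16e-06) and -0.53 ± 0.12 (adjusted p = 0.00259). Hoxa9 was called in neither comparison, nor were Cebpa and Cd34. Whether the falls of Lck and Ccnd3 follow Hoxa9 was not tested. Cebpa, Cd34, Flt3, Il7r and Satb1 of this list are also progenitor markers, whose sum moved in the same comparisons as given above. Meis1 is on both the cofactor and the target list, and Mllt3 and Hoxb5 are also on the list of stem cell markers. The counts of these lists are therefore not independent.

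The genes whose pattern over the 12 libraries was most like that of a member were taken from 9994 protein coding genes outside the cluster by the correlation of log2 CPM. For Hoxa9 these were Hnf4a, a nuclear receptor of liver cells (r = 0.988), Emcn, the sialomucin endomucin (r = 0.976), Itga9, an integrin chain (r = 0.949), and Cd27, a receptor of the TNF receptor family (r = 0.945). Hnf4a stood at 1.31 and 0.582 CPM in HOXA9_KO and at 0.774 and 0.38 in dKO, against 17.8 and 27.8 in WT. Emcn stood at 2.95 and 2.75 CPM in HOXA9_KO and at 3.10 and 3.30 in dKO, against 17.1 and 18.7 in WT. Like Hoxa9, both genes were low in these 4 libraries and in no other, and the 12 points share that split into groups. For Hoxa7 the most like were Cdk7, Camk2g, Tnpo1 and Pisd, with r of 0.915 to 0.926. For Hoxa10 they were Lonrf1, Slc39a11, Padi4 and 1700066M21Rik, with r of 0.797 to 0.808.

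**Figure D5:**
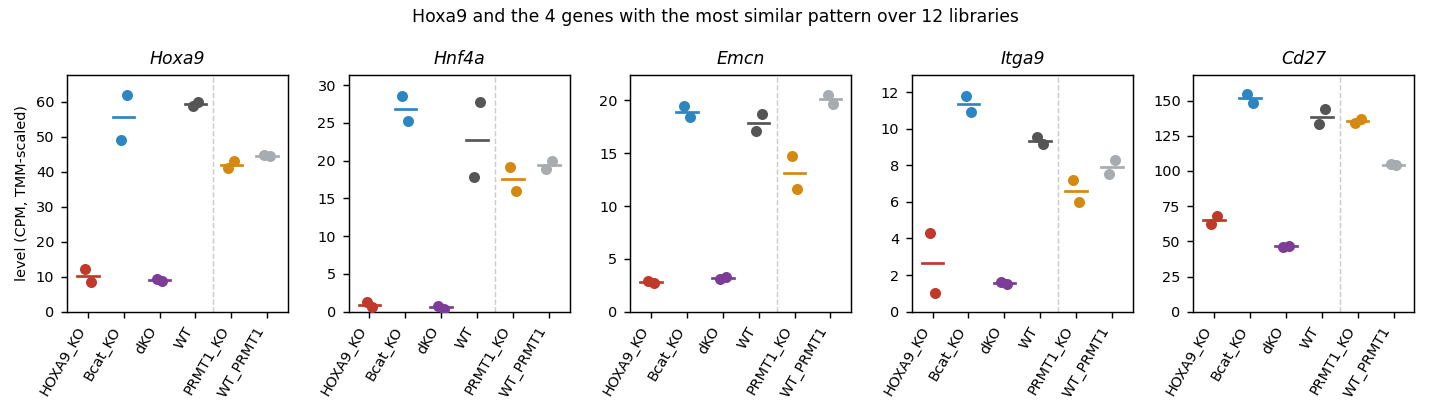
Hoxa9 and the 4 genes with the most similar pattern over 12 libraries, in CPM (TMM-scaled, linear axes from 0). Dots are libraries, bars are means of 2, and the dashed line divides the experiments. All 5 genes are lowest in HOXA9_KO and dKO, and Cd27 keeps 45.8 to 68.1 CPM there, against 133 and 144 in WT.

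Among themselves the members did not share 1 pattern. Over the 12 libraries the correlation of log2 CPM was 0.77 between Hoxa5 and Hoxa6, 0.68 between Hoxa4 and Hoxa9, 0.68 between Hoxa5 and Hoxa10 and 0.56 between Hoxa5 and Hoxa9. The adjacent pairs Hoxa7 with Hoxa9 and Hoxa9 with Hoxa10 had 0.02 and 0.22. Hoxa7 and Hoxa10 had -0.24, and Hoxa2 and Hoxa6 had -0.51, the lowest of the 28 pairs. These are descriptions over libraries that share group means and depth.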

How the data were processed

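Whole-gene read counts in 12 LSK cell libraries were made by the authors and deposited as 1 table. The submitters' processing notes name Trim Galore 0.6.6, STAR 2.7.6a, featureCounts and the builds GRCm38 and mm10. Per the labels, the kits were RNeasy Plus Micro and NEB Ultra II Directional. Not given in the sources used here are annotation release and strand setting. Of the nonzero counts 67.1 to 75.9% were even, and counts of 2 were 4.12 to 6.21 times as many as counts of 1. The deposited exon length was used for levels per kilobase. Of 55471 identifiers 55230 matched GENCODE M21, and the others held 0.0044% of the counts.

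The tests ran in edgeR 4.0.16 under R 4.3.3: filterByExpr at a minimum count of 10 (17063 genes, all 8 members among them), TMM scaling, and a robust quasi-likelihood fit of 6 group means to all 12 libraries (6 residual degrees of freedom). In all, 8 comparisons were tested, with Benjamini-Hochberg adjustment over all genes and a call at 0.05. Standard errors were taken from the log2 change and the root of the F statistic. A prior count of 2 was used for log2 CPM in correlations, over genes with a mean of at least 5 CPM. Python 3.11.15, pandas 2.3.3 and matplotlib 3.10.9 did the rest, and the fit was tested on simulated counts.

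The members, lists and tests were chosen with earlier results of these data known. Named genes are the members, locus genes that were called, the 4 of each regulator, target and cofactor list with the smallest p in the comparisons given, Hoxb genes by level or call, and the 4 genes most like Hoxa9, Hoxa7 and Hoxa10. Where a list's results are given as counts, its 4 genes are not all repeated for each comparison. Some genes of the lists are counted but not reported here by name. Alternatives were RLE factors, library-size scaling, no filter, a mean of 5 CPM, only the groups compared, only the experiment, DESeq2 1.42.0, leaving out each library and, added after seeing the data, a spread that was not robust.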

Additional observations from a re-analysis of the deposited data

How the results depend on the processing

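Of the 64 changes of members in 8 comparisons, 21 changed sign under at least 1 alternative, 20 of them only when a library was left out, and none of the 8 called changes did. The Hoxa9 calls in HOXA9_KO and dKO held in all 12 alternatives each, and so did that in dKO against Bcat_KO. The other 5 calls were each lost in several. For HOXA9_KO against WT the count of 2 members became 1 with a spread that was not robust and with only the experiment, 3 (with Hoxa10) with no filter, DESeq2 and only the groups compared, and 1 to 1 without each replicate. For dKO against WT it became 1 with no filter, at a mean of 5 CPM (where Hoxa4 is not tested), with only the groups compared and with only the experiment, and 1 to 1 without each replicate. For dKO against Bcat_KO it became 1 with no filter, at a mean of 5 CPM and with only the groups compared, and 1 to 2 without each replicate. For PRMT1_KO against WT_PRMT1 the count of 1 became 0 with library-size scaling and with no filter, 2 with only the experiment or its 2 groups fitted, and 0 to 0 without each replicate. For WT_PRMT1 against WT it became 0 with RLE size factors, library-size scaling and a spread that was not robust, 2 (with Hoxa9) with only the groups compared, and 0 to 0 without each replicate. For dKO against HOXA9_KO it was 0 to 1 without each replicate. The uncalled change of Hoxa9 reversed when a library was left out in Bcat_KO against WT (-0.29 to 0.05), in dKO against HOXA9_KO (-0.41 to 0.13) and in its departure from additivity (-0.30 to 0.23).

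Over all genes the number called also moved by over 1.5 times: in dKO against HOXA9_KO it was 298, but 623 with no filter, 621 with DESeq2, 157 with only the experiment and 3 with only the groups compared. In WT_PRMT1 against WT it was 1294, but 2294 with only the groups compared. In dKO against Bcat_KO it was 4802, but 3041 with only the groups compared. For departure from additivity it was 1439, but 955 with only the experiment. Leaving out a library gave 521 to 948 genes in HOXA9_KO against WT (1149 with all), 1312 to 2115 in Bcat_KO against WT (2942), 1698 to 2939 in dKO against WT (3016), 168 to 607 in dKO against HOXA9_KO, 638 to 676 in WT_PRMT1 against WT and 670 to 1388 for the departure from additivity. The median level of Hoxa7 became 11.4 and that of Hoxa3 0.690 CPM per kilobase over unshared exon bases. No paired analysis was possible because the columns carry S tags and no replicate numbers. Counts of 4 to 127 per library limit what can be seen for Hoxa2, Hoxa3, Hoxa4 and Hoxa6.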
